A study of Mus musculus with 4 samples.

Results

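The vascular basement membrane genes examined here were Col4a1, Col4a2, Lama4, Lamb1, Lamc1, Nid1, Nid2, Hspg2, Sparc and Sparcl1, a named set of 10 of the 32285 mouse genes in the files. They were followed in single cells of hyaloid vessels, the transient vessels of the vitreous body, from mice at postnatal day 6 (P6). Hyaloid vessels had been dissociated, live cells carrying CD31 or PDGFRB had been sorted into 4 plates of 384 wells, and their transcripts had been counted by SORT-seq, which tags each molecule near its 3′ end with a unique molecular identifier (UMI). Gpr124 dEC/dEC mice carried floxed Gpr124 alleles and VECad-Cre-ERT2, a tamoxifen-inducible Cre recombinase under the vascular endothelial cadherin promoter. Gpr124 fl/fl mice were littermates with the same floxed alleles and without Cre, and both genotypes received tamoxifen after birth. The floxed line came from a B6N stock. Vitreous bodies of several mice were pooled into 1 suspension per genotype, and 2 plates were filled from each suspension, so the plates of a genotype are not separate animals. The files held 108059 mouse UMIs for Gpr124 fl/fl replicate plate 1, 128082 for replicate plate 2, 51972 for Gpr124 dEC/dEC replicate plate 1 and 174645 for replicate plate 2.

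A basement membrane is a thin sheet of matrix that endothelial cells and pericytes share in small vessels. Collagen IV and laminins each form a network, nidogens and the proteoglycan perlecan link the networks, and SPARC family proteins bind collagen and matrix without being part of the scaffold. During vessel remodelling this matrix is made, altered and removed by the cells on both of its sides.

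Wells were kept with 1000 to 8000 UMIs, after scaling each plate to the highest plate median, and a mitochondrial share under 10%. Endothelial cells had Cldn5 and no Pdgfrb UMIs, and pericytes had Pdgfrb and no Cldn5 UMIs. This left 32 cells. The 11 endothelial cells were 2 and 3 in Gpr124 fl/fl replicate plates 1 and 2 and 4 and 2 in Gpr124 dEC/dEC replicate plates 1 and 2, with 31048 UMIs in all. The 21 pericytes were 6 and 3 in the Gpr124 fl/fl plates and 12 in Gpr124 dEC/dEC replicate plate 2, with 80460 UMIs, and Gpr124 dEC/dEC replicate plate 1 held no pericyte. Cell depth ran from 1104 to 6901 UMIs in endothelial cells and from 1309 to 7222 in pericytes. A single cell held 43.5% of the Gpr124 dEC/dEC endothelial UMIs. All 4 plates used the same 384 barcodes, and 10 of the 32 cells, 3 endothelial cells and 7 pericytes, had a barcode that also marked a well of at least 1000 UMIs in another plate.

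The class names were checked on 15 markers each. Endothelial markers, Cldn5 left out, summed to 108 UMIs per 10000 in endothelial cells and 9.69 in pericytes, with 14 of 15 seen in endothelial cells and Erg at 0. Over the endothelial plates this sum was 86.7 and 88.2 for Gpr124 fl/fl and 137 and 122 for Gpr124 dEC/dEC, lower in both Gpr124 fl/fl plates. Pericyte markers, Pdgfrb left out, summed to 179 in pericytes and 17.4 in endothelial cells, and all 15 were seen in pericytes. Over the pericyte plates this sum was 199 and 120 in Gpr124 fl/fl replicate plates 1 and 2 and 189 in the Gpr124 dEC/dEC plate. Among the endothelial plates, Gpr124 fl/fl replicate plate 1 held 35.3 of pericyte markers, against 6.70 in replicate plate 2 and 13.5 and 18.1 in the Gpr124 dEC/dEC plates. The most abundant pericyte marker in both classes was Rgs5, with 723 UMIs in pericytes and 21 in endothelial cells. Gpr124 itself (Adgra2) had 3 UMIs among the Gpr124 fl/fl endothelial cells, 2 and 1 in replicate plates 1 and 2. It had 0 in both Gpr124 dEC/dEC endothelial plates. Over these plates together the floor of 3 counts is 1.89 UMIs per 10000, and the exact Poisson interval reaches 2.33. In pericytes Gpr124 had 6 and 1 UMIs in the Gpr124 fl/fl plates and 17 in the Gpr124 dEC/dEC plate. The counts are too low to check the genotype labels, and a tag near the 3′ end need not lie in the deleted part.

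Markers of other cell types were counted in the same cells. Of 7 fibroblast markers, 3 were seen in pericytes, summing to 17.2 and 21.3 UMIs per 10000 in the Gpr124 fl/fl plates and 17.0 in the Gpr124 dEC/dEC plate, against 1.61 over all endothelial cells. Col1a2 was the most abundant, with 89 UMIs, and Pdgfra, Dcn, Dpt and Lum were at 0 in both classes. Macrophage markers reached 3.10 in Gpr124 dEC/dEC pericytes, from 15 UMIs of 6 of 9 genes led by C1qc, and 0 in both Gpr124 fl/fl pericyte plates. In endothelial cells they summed to 3 UMIs, all of C1qb, with Csf1r at 0 in both classes. Lens, melanocyte and astrocyte markers were at 0 in both classes. The endothelial cells of Gpr124 fl/fl replicate plate 2 stood apart by their erythroid markers, which reached 260 UMIs per 10000, led by Hba-a2, with 63 to 87 UMIs in each of its 3 cells. Erythroid markers came to 5.07 in the endothelial cells of Gpr124 dEC/dEC replicate plate 1 and to 0 in the other endothelial plates, and they ran from 0.555 to 2.90 in the pericyte plates. The part of RNA from other cell types in the basement membrane values was not tested.

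The first comparison asked which class of cell supplied each basement membrane chain. Pericytes held most UMIs of both collagen IV chains, of the 3 laminin chains and of Nid1, each beyond their 72.2% share of all UMIs in the retained cells. Endothelial cells held most UMIs of Hspg2 and more of Sparc than their share. For Nid2 and Sparcl1 the pericyte share did not differ from that of all UMIs beyond counting error. The 10 genes together made up 1.48% (1.35% to 1.62%) of endothelial UMIs and 1.93% (1.84% to 2.03%) of pericyte UMIs, with exact Clopper-Pearson 95% intervals. Col4a1 and Col4a2 gave 95 and 78 of the 460 summed UMIs in endothelial cells and 498 and 308 of the 1555 in pericytes. The sum does not stand for every member, and a sum without these chains was not taken. All intervals given here cover counting error only.

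For the test, UMIs were summed per class and plate, giving 4 endothelial and 3 pericyte sums. Of all genes 148 passed the filter on low counts, among them 5 of the 10 members. Of these 5, Col4a1, Col4a2 and Nid1 were called higher in pericytes by edgeR, beside 36 of 148 genes (24.3%) among all genes tested. Sparc and Sparcl1 were not called in either direction, and the background of calls higher in endothelial cells was 15 of 148 genes (10.1%). These background counts include Pdgfrb and Cldn5, which defined the classes. The filter asked for 10.1 UMIs per 10000 in 3 sums, which Col4a1 and Nid1 reached in 3 endothelial and 3 pericyte sums, Col4a2 and Sparc in 4 and 3, and Sparcl1 in 2 and 2. The 5 members had a median log2 fold change of 1.03, pericytes over endothelial cells, and all genes tested one of -0.02. The p-values measure the spread between plates filled from 2 suspensions, not between mice. The scaling moved this balance. The main fit took library sizes from the 148 genes that passed and scaled them by TMM. The fit with library size only took them from all genes without TMM, so 2 steps changed together. With library size only, the median of all genes moved by -0.42. In that fit 23 genes were called higher in pericytes and 46 lower, against 36 and 15.

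**Figure D1:**
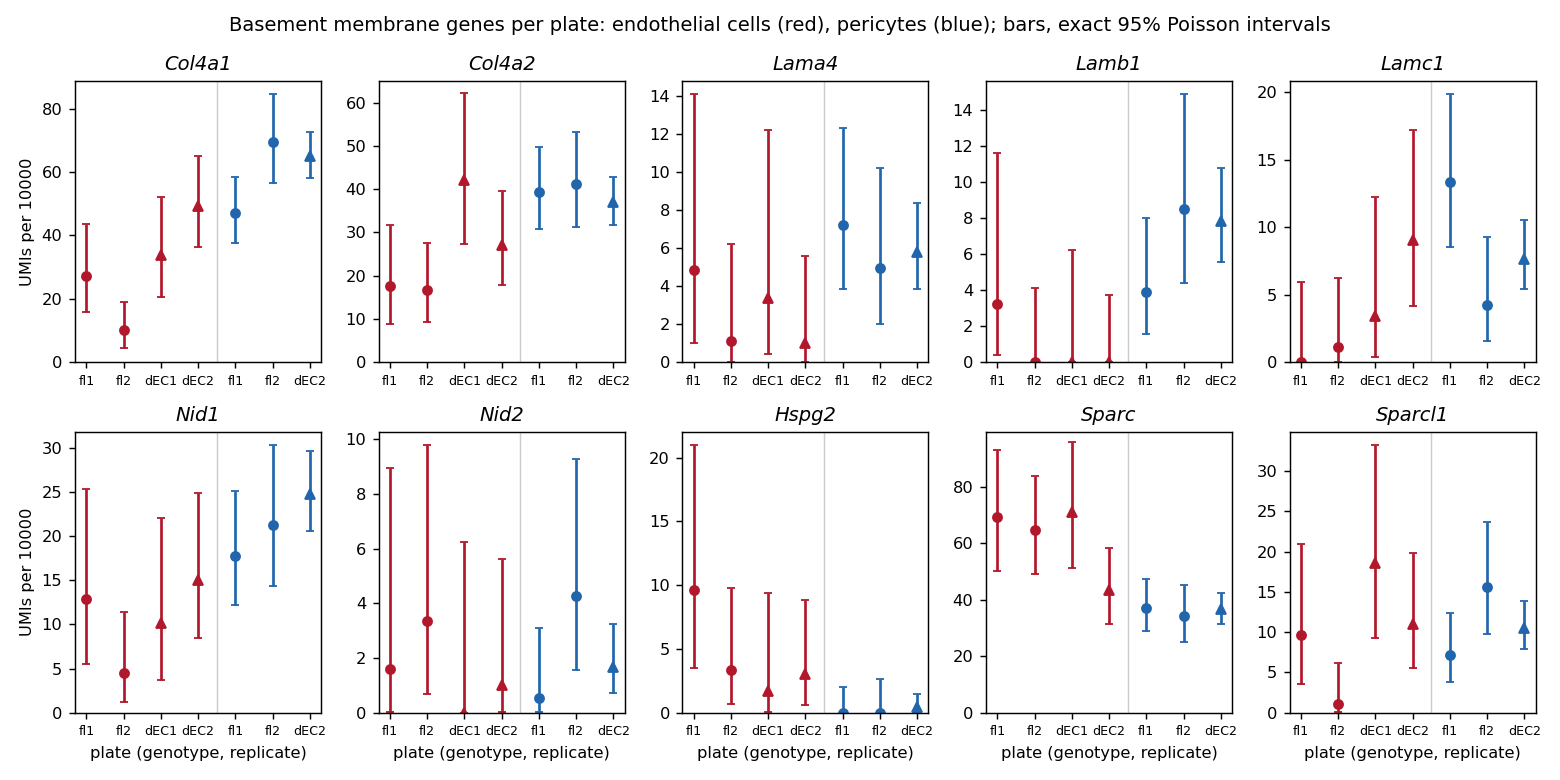
UMIs per 10000 (vertical axes) of each gene in the endothelial cells (red) and pericytes (blue) of each plate (horizontal axes; fl, Gpr124 fl/fl, circles; dEC, Gpr124 dEC/dEC, triangles; the digit is the replicate), with exact 95% Poisson intervals. Nid1 lay higher in all 3 pericyte sums than in the 4 endothelial sums and Sparc lower, as did 13.5% and 27.0% of the genes tested.

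Col4a1 and Col4a2 encode the chains of the most widespread collagen IV heterotrimer. Col4a1 stood at 27.3 and 10.05 in the Gpr124 fl/fl plates and 33.8 and 49.3 in the Gpr124 dEC/dEC plates in endothelial cells, in UMIs per 10000. In pericytes it stood at 47.2 and 69.5 in the Gpr124 fl/fl plates and 65.1 in the Gpr124 dEC/dEC plate. Of the 3 pericyte plates, 2 lay above all 4 endothelial plates, and the lowest lay just under the highest endothelial plate. Col4a1 was higher in pericytes, with a log2 fold change of 1.40 (SE 0.29, edgeR adjusted p = 1.2e-05). Relative to the median of all genes the value was 1.42 with TMM, 1.44 with library size only and 0.66 with no filter on low counts. All 21 pericytes and 10 of 11 endothelial cells had a Col4a1 UMI, and a draw of 1000 UMIs from each cell would give one in 99.6% and 85.1%. Pericytes held 84.0% (80.8% to 86.8%) of its UMIs. The Col4a1 call was lost with stricter marker classes, which kept 4 endothelial cells and 12 pericytes (1.51, adjusted p = 0.0926), and with sums per suspension (1.30, adjusted p = 0.0656). All alternatives for Col4a1 gave log2 fold changes of 0.99 to 1.81 and adjusted p of 7.7e-06 to 0.0926.

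Col4a2 stood at 17.7 and 16.7 in the Gpr124 fl/fl plates and 42.2 and 27.2 in the Gpr124 dEC/dEC plates in endothelial cells. Its pericyte values were 39.4 and 41.1 in the Gpr124 fl/fl plates and 37.0 in the Gpr124 dEC/dEC plate. Each pericyte plate lay above 3 of the 4 endothelial plates and below Gpr124 dEC/dEC replicate plate 1. Col4a2 was higher in pericytes, with a log2 fold change of 1.03 (SE 0.29, edgeR adjusted p = 0.0022), and pericytes held 79.8% (75.4% to 83.7%) of its UMIs. Relative to the median of all genes the value was 1.05 with TMM, 1.06 with library size only and 0.27 with no filter on low counts. The call was less firm than that of Col4a1. It was lost with library size only (0.62, adjusted p = 0.0589), without Gpr124 dEC/dEC replicate plate 2 (1.17, adjusted p = 0.066), without cells of shared barcodes (0.55, adjusted p = 0.347), with stricter marker classes (0.36, adjusted p = 0.675) and with sums per suspension (0.87, adjusted p = 0.128). All alternatives for Col4a2 gave log2 fold changes of 0.36 to 1.42 and adjusted p of 4.8e-04 to 0.675.

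The balance of the collagen IV chains also varied. How fully the assay counts each of the 2 genes was not measured. Only differences in this ratio between groups of cells therefore bear on the cells, and equality is a reference only. Per UMI of Col4a2, pericytes had 1.62 (1.40 to 1.87) UMIs of Col4a1 and endothelial cells 1.22 (0.893 to 1.66), and these intervals overlapped. Col4a1 exceeded Col4a2 in 18 of 21 pericytes and in 6 of 11 endothelial cells. In pericytes the ratio was 1.20 (0.863 to 1.66) and 1.69 (1.21 to 2.38) in Gpr124 fl/fl replicate plates 1 and 2 and 1.76 (1.46 to 2.13) in the Gpr124 dEC/dEC plate. In endothelial cells it was 1.55 (0.683 to 3.65) and 0.60 (0.232 to 1.46) in the Gpr124 fl/fl plates and 0.80 (0.421 to 1.5) and 1.81 (1.11 to 3.02) in the Gpr124 dEC/dEC plates, so plates of 1 genotype lay on both sides of equality. Across the 32 cells the log-scaled values of Col4a1 and Col4a2 had a Pearson correlation of 0.41, with 0.40 over the 11 endothelial cells and -0.02 over the 21 pericytes. These cells share plates and differ in depth, and the correlation is a description.

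**Figure D2:**
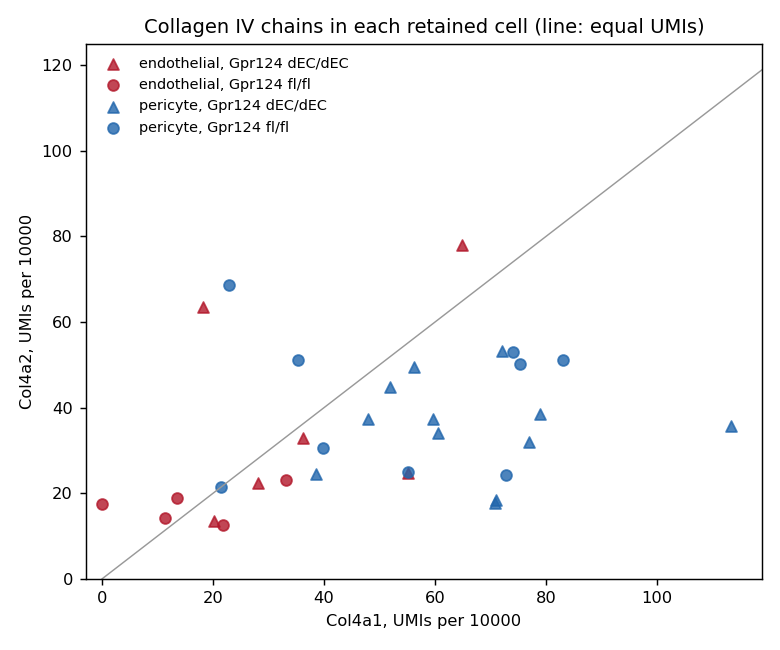
Col4a1 (horizontal axis) against Col4a2 (vertical axis), both in UMIs per 10000, in each of the 11 endothelial cells (red) and 21 pericytes (blue), with circles for Gpr124 fl/fl and triangles for Gpr124 dEC/dEC and a grey line where both are equal. 18 of 21 pericytes lay below the line.

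Col4a1 and Col4a2 lie head to head on GRCm38, Col4a1 at chr8:11198423-11312826, minus strand, ENSMUSG00000031502, and Col4a2 at chr8:11312805-11449287, plus strand, ENSMUSG00000031503. Their annotated 5′ ends overlap, on opposite strands and far from the 3′ ends that the assay tags. RefSeq promoter windows (GRCm38.p6, 250 bases before to 50 after each start) were matched for 6 of the 10 members, Col4a1, Col4a2, Lamb1, Nid1, Hspg2 and Sparc. The Col4a1 and Col4a2 windows are shown because these neighbours were both higher in pericytes and share 78 bases, chr8:11312777-11312854, with starts 21 bases apart. Each is printed 5′ to 3′ on its own gene's strand (minus for Col4a1, chr8:11312777-11313076, and plus for Col4a2, chr8:11312555-11312854), with the shared bases in capitals.
Col4a1: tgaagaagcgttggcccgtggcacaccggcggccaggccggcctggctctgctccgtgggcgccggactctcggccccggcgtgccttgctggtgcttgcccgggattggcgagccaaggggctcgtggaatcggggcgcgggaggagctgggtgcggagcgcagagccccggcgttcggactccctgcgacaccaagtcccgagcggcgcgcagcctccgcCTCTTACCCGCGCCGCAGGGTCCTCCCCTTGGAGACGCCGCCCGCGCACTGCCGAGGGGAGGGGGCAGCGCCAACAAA
Col4a2: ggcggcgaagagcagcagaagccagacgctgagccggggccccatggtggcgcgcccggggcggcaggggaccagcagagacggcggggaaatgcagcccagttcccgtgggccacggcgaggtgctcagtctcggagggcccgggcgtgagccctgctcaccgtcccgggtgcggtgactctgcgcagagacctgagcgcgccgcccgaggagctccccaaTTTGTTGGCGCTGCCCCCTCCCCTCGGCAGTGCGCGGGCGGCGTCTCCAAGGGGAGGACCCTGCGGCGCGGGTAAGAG
On either strand, GGGCGG was found 1 time in the Col4a1 window and 3 times in the Col4a2 window, and 35.7% of the 32851 windows of this length held it. CCAAT was found 1 time in each, against 37.4% of windows. TATAAA (13.6% of windows) and CTTTGA (16.0%) were in neither. The G and C share was 74.0% and 73.7%, beside a median of 52.7% over all windows. These matches are a description of the letters only.

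Lama4, Lamb1 and Lamc1 encode the chains of a laminin of vessel walls. On GRCm38 they lie apart, Lama4 at chr10:38965515-39110188, plus strand, ENSMUSG00000019846, Lamb1 at chr12:31265234-31329644, plus strand, ENSMUSG00000002900, and Lamc1 at chr1:153218922-153332786, minus strand, ENSMUSG00000026478. None of these genes passed the filter on low counts. Lamb1, the laminin β chain, had 2 UMIs in endothelial cells, both in 1 cell of Gpr124 fl/fl replicate plate 1, and 57 in pericytes. Its pericyte values were 3.89 and 8.51 in the Gpr124 fl/fl plates and 7.86 in the Gpr124 dEC/dEC plate, and pericytes held 96.6% (88.3% to 99.6%) of its UMIs, above their share of all UMIs. A Lamb1 UMI was seen in 16 of 21 pericytes and 1 of 11 endothelial cells, and drawing 1000 UMIs from each cell would give one in 45.6% and 5.02%. The log2 ratio of its levels, pericytes over endothelial cells, was 3.46 (95% interval 1.54 to 6.54). With no filter on low counts 4 of the 10 members, Col4a1, Col4a2, Lamb1 and Nid1, were called higher in pericytes, beside 188 of 10829 genes (1.74%). None was called higher in endothelial cells, beside 50 of 10829 genes (0.462%). Of the 10829 genes only 609 outside the members had at least 30 UMIs, so these shares are not ones at the members' depth. The median log2 fold change of all genes in this fit was 1.15, toward pericytes.

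Lama4, the laminin α chain typical of small vessels, stood at 4.82 and 1.12 in the Gpr124 fl/fl plates and 3.38 and 1.01 in the Gpr124 dEC/dEC plates in endothelial cells, from 7 UMIs in all. In pericytes it stood at 7.22 and 4.97 in the Gpr124 fl/fl plates and 5.79 in the Gpr124 dEC/dEC plate, with the lowest pericyte plate just above the highest endothelial plate. The Lama4 interval of the pericyte share, 87.3% (75.5% to 94.7%), lay above the share of all UMIs. Lamc1, the γ chain shared by most laminins, stood at 0 and 1.12 in the Gpr124 fl/fl plates and 3.38 and 9.05 in the Gpr124 dEC/dEC plates in endothelial cells. In pericytes it stood at 13.3 and 4.26 in the Gpr124 fl/fl plates and 7.65 in the Gpr124 dEC/dEC plate, and the classes overlapped. All 21 pericytes and 5 of 11 endothelial cells had a Lamc1 UMI, and a draw of 1000 UMIs from each cell would give one in 60.7% and 24.8%. Pericytes held 84.8% (75.0% to 91.9%) of its UMIs. With no filter on low counts, Lama4 was not called at a log2 fold change of 2.15 (edgeR adjusted p = 0.0725). In the same fit Lamc1 was not called at 1.95 (edgeR adjusted p = 0.0521).

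Nid1 and Nid2 encode nidogens, which bridge laminin and collagen IV. Nid1 lies at chr13:13437551-13512269, plus strand, ENSMUSG00000005397, and Nid2 at chr14:19751265-19811787, plus strand, ENSMUSG00000021806. Nid1 stood at 12.9 and 4.46 in the Gpr124 fl/fl plates and 10.1 and 15.1 in the Gpr124 dEC/dEC plates in endothelial cells and at 17.8 and 21.3 in the Gpr124 fl/fl plates and 24.8 in the Gpr124 dEC/dEC plate in pericytes, so that every pericyte plate lay above every endothelial plate. Nid1 was higher in pericytes, with a log2 fold change of 1.44 (SE 0.33, edgeR adjusted p = 8.1e-05), and pericytes held 84.7% (79.1% to 89.2%) of its UMIs. Among all genes tested, 20 of 148 genes (13.5%) had every pericyte sum above every endothelial sum. Relative to the median of all genes the Nid1 value was 1.46 with TMM, 1.46 with library size only and 0.68 with no filter on low counts. The Nid1 call was present under every alternative of the class comparison, with log2 fold changes of 1.02 to 1.86 and adjusted p of 2.9e-05 to 0.0487. Nid2 was sparse, with 5 UMIs in endothelial cells and 15 in pericytes, and its pericyte share was 75.0% (50.9% to 91.3%). It stood at 1.61 and 3.35 in the Gpr124 fl/fl plates and 0 and 1.01 in the Gpr124 dEC/dEC plates in endothelial cells and at 0.555 and 4.26 in the Gpr124 fl/fl plates and 1.65 in the Gpr124 dEC/dEC plate in pericytes, and the classes overlapped. Across the 32 cells Nid1 and Col4a1 had a Pearson correlation of 0.77, with 0.74 within endothelial cells and 0.40 within pericytes. For Nid1 and Col4a2 the values were 0.19, -0.11 and 0.06.

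Hspg2 encodes perlecan, the large heparan sulfate proteoglycan of basement membranes, and lies at chr4:137468769-137570630, plus strand, ENSMUSG00000028763. Its direction was opposite to that of the collagen and laminin chains. Endothelial cells had 9.64 and 3.35 in the Gpr124 fl/fl plates and 1.69 and 3.02 in the Gpr124 dEC/dEC plates, in UMIs per 10000, from 13 UMIs. Of the 13, 5 were in 1 cell of Gpr124 fl/fl replicate plate 1. Pericytes had 0 in both Gpr124 fl/fl plates and 0.414 in the Gpr124 dEC/dEC plate, from 2 UMIs. Over both Gpr124 fl/fl plates the floor of 3 counts is 0.934, and the exact 95% Poisson interval reaches 1.15. Pericytes held 13.3% (1.66% to 40.5%) of Hspg2 UMIs. A Hspg2 UMI was seen in 7 of 11 endothelial cells and 2 of 21 pericytes, although the median pericyte was deeper (3750 UMIs against 3020). At 1000 UMIs per cell the shares would be 31.2% and 2.39%. The log2 ratio of its levels, pericytes over endothelial cells, was -4.07 (95% interval -7.26 to -1.93). Hspg2 did not pass the filter, and with no filter it was not called (edgeR adjusted p = 0.146).

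Sparc encodes a collagen-binding matricellular glycoprotein, and Sparcl1 its relative hevin. Sparc lies at chr11:55394500-55423183, minus strand, ENSMUSG00000018593, and Sparcl1 at chr5:104079111-104113733, minus strand, ENSMUSG00000029309. Sparc stood at 69.1 and 64.7 in the Gpr124 fl/fl plates and 70.9 and 43.3 in the Gpr124 dEC/dEC plates in endothelial cells and at 37.2 and 34.1 in the Gpr124 fl/fl plates and 36.6 in the Gpr124 dEC/dEC plate in pericytes. Every endothelial plate lay above every pericyte plate, as for 40 of 148 genes (27.0%) tested. Pericytes held 61.1% (56.6% to 65.5%) of Sparc UMIs, below their share of all UMIs. Its call depended on the scaling. The log2 fold change was -0.35 (SE 0.28, edgeR adjusted p = 0.329) with TMM and -0.76 (edgeR adjusted p = 0.00885) with library size only, and with no filter on low counts it was 0.06 (edgeR adjusted p = 0.916). Relative to the median of all genes in each fit the values were -0.33, -0.32 and -1.09. All alternatives for Sparc gave log2 fold changes of -0.86 to 0.06 and adjusted p of 0.00885 to 0.916. Sparcl1 stood at 9.64 and 1.12 in the Gpr124 fl/fl plates and 18.6 and 11.1 in the Gpr124 dEC/dEC plates in endothelial cells and at 7.22 and 15.6 in the Gpr124 fl/fl plates and 10.5 in the Gpr124 dEC/dEC plate in pericytes. Its classes overlapped, its log2 fold change of 0.59 (SE 0.42, edgeR adjusted p = 0.265) was not called, and the sign turned without Gpr124 fl/fl replicate plate 2 (-0.07, adjusted p = 0.932). All alternatives for Sparcl1 gave log2 fold changes of -0.07 to 0.999 and adjusted p of 0.132 to 0.932.

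The second comparison set the genotypes side by side within each class. In endothelial cells the summed UMIs of the 10 genes were lower in Gpr124 fl/fl than in Gpr124 dEC/dEC, but single members went both ways. Of the 4 members with at least 30 UMIs, the intervals of Col4a1 and Col4a2 lay below 0, beside 10 of 138 genes (7.25%) of that depth. No interval of these 4 lay above 0, beside 13 of 138 genes (9.42%). In the retained pericytes no interval of the 8 members with at least 30 UMIs left out 0, beside 26 of 423 genes (6.15%) below 0 and 11 of 423 genes (2.60%) above, although some did under other settings. With 1 suspension per genotype there is no replicate check and no test. Ratios are given as log2 of Gpr124 fl/fl over Gpr124 dEC/dEC with an exact conditional binomial 95% interval. The 10 genes together took up 1.26% (1.09% to 1.46%) of endothelial UMIs for Gpr124 fl/fl and 1.69% (1.49% to 1.90%) for Gpr124 dEC/dEC, a log2 ratio of -0.42 (95% interval -0.69 to -0.15). Without Gpr124 fl/fl replicate plate 2, the plate with the erythroid UMIs, the ratio was -0.12 (-0.47 to 0.22), and its interval included 0. With ribosomal protein, mitochondrial and haemoglobin genes left out of the denominator it was -0.34 (-0.62 to -0.07). Without cells of shared barcodes it was -0.52 (-0.87 to -0.16). Col4a1 and Col4a2 gave 26 and 26 of the 192 summed UMIs in Gpr124 fl/fl and 69 and 52 of the 268 in Gpr124 dEC/dEC. Of the other members with a ratio, Lamc1, Nid1 and Sparcl1 were below 0 and Sparc, Hspg2, Lama4 and Nid2 above it. The sum is therefore not a result about every member, and a sum without the collagen IV chains was not taken. Endothelial markers other than Cldn5 were also lower in both Gpr124 fl/fl endothelial plates, at 86.7 and 88.2 UMIs per 10000 against 137 and 122, and pericyte markers were highest in Gpr124 fl/fl replicate plate 1, at 35.3. The part of these markers in the difference was not tested, nor was that of the erythroid UMIs beyond these alternatives. In pericytes the 10 genes together took up 1.87% (1.72% to 2.02%) and 1.98% (1.85% to 2.10%), a log2 ratio of -0.08 (95% interval -0.23 to 0.07), and -0.14 (-0.34 to 0.05) without cells of shared barcodes. With no upper UMI limit the pericyte ratio was -0.16 (-0.27 to -0.05), an interval that leaves out 0.

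**Figure D3:**
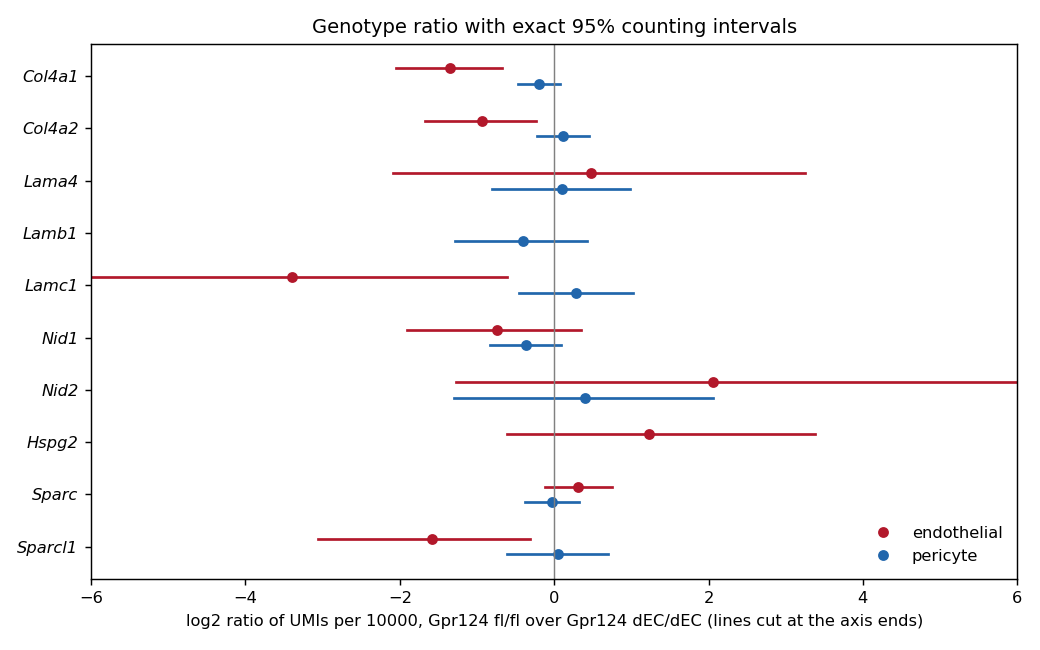
Log2 ratio of UMIs per 10000 in Gpr124 fl/fl over Gpr124 dEC/dEC (horizontal axis) for each gene (vertical axis) in endothelial cells (red) and pericytes (blue), with exact 95% counting intervals that end at the axis limits, leaving out genes with at most 3 UMIs in both genotypes of a class. Of the 4 members with at least 30 endothelial UMIs, Col4a1 and Col4a2 had intervals below 0, beside 7.25% of all such genes.

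The collagen IV chains were lower in Gpr124 fl/fl than in Gpr124 dEC/dEC endothelial cells. Col4a1 had 26 UMIs from Gpr124 fl/fl against 69 from Gpr124 dEC/dEC, which was 17.1 (11.2 to 25.1) and 43.5 (33.8 to 55.0) UMIs per 10000, a log2 ratio of -1.34 (95% interval -2.06 to -0.68). Among the 4 members with at least 30 endothelial UMIs, Col4a1 alone was at least 2-fold lower in Gpr124 fl/fl, beside 6 of 138 genes (4.35%) of that depth. None was at least 2-fold higher, beside 12 of 138 genes (8.70%). Without the cell with the most UMIs in each genotype the Col4a1 ratio was -0.92 (-1.79 to -0.07), and without Gpr124 fl/fl replicate plate 2 it was -0.67 (-1.53 to 0.11), an interval that includes 0. Its interval also included 0 with stricter marker classes, at -1.42 (-3.24 to 0.11). Without Gpr124 fl/fl replicate plate 1 it was -2.11 (-3.30 to -1.11), and without cells of shared barcodes -1.19 (-2.13 to -0.28). Col4a2 had 26 UMIs from Gpr124 fl/fl against 52 from Gpr124 dEC/dEC, a log2 ratio of -0.94 (95% interval -1.68 to -0.23). Its interval included 0 without Gpr124 fl/fl replicate plate 2, at -0.89 (-1.98 to 0.06), without Gpr124 dEC/dEC replicate plate 1, at -0.67 (-1.50 to 0.17), and at a mitochondrial limit of 5%, at -0.75 (-1.63 to 0.07). Over all Gpr124 fl/fl endothelial cells each chain stood at 17.1 (11.2 to 25.1) UMIs per 10000. These intervals overlapped those of the wells left out with under 1000 UMIs, 11.7 (10.3 to 13.2) for Col4a1 and 15.2 (13.6 to 16.9) for Col4a2. For both chains both Gpr124 fl/fl endothelial plates lay below both Gpr124 dEC/dEC plates. That held for 2 of the 4 members at this depth, beside 21 of 138 genes (15.2%), and the reverse order for 0 of 4, beside 24 of 138 genes (17.4%). Among members with fewer UMIs, Lamc1 and Sparcl1 had the same order, Nid2 and Hspg2 the reverse, and the plates of Lama4 and Lamb1 overlapped. The share of all genes at that lower depth was not counted, so these orders are a description only.

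The remaining endothelial ratios rested on few UMIs, except that of Sparc. Lamc1 had 1 UMI from Gpr124 fl/fl against 11 from Gpr124 dEC/dEC, a log2 ratio of -3.40 (95% interval -8.82 to -0.61). Of the 11 UMIs, 7 came from the deepest cell, and without the deepest cell of each genotype the ratio was -2.36 (-7.98 to 0.98). Its interval also included 0 without Gpr124 dEC/dEC replicate plate 2, without Gpr124 fl/fl replicate plate 1 and without cells of shared barcodes, at -2.36, -2.64 and -2.32. Sparcl1 had 7 UMIs from Gpr124 fl/fl against 22 from Gpr124 dEC/dEC, a log2 ratio of -1.59 (95% interval -3.06 to -0.31), -0.52 (-2.12 to 0.82) without Gpr124 fl/fl replicate plate 2 and -3.64 (-9.00 to -1.01) without replicate plate 1. Its interval also included 0 without Gpr124 dEC/dEC replicate plate 1, at -1.26 (-2.87 to 0.24), and at a mitochondrial limit of 5%, at -1.01 (-2.63 to 0.38). Nid1 had 12 UMIs from Gpr124 fl/fl against 21 from Gpr124 dEC/dEC, with a ratio of -0.74 (95% interval -1.90 to 0.35). Single plates moved the Nid1 ratio, to -0.04 (-1.43 to 1.19) without Gpr124 fl/fl replicate plate 2 and to -1.57 (-3.57 to -0.00054) without Gpr124 fl/fl replicate plate 1. Sparc, the endothelial member with the most UMIs, had 101 UMIs from Gpr124 fl/fl against 85 from Gpr124 dEC/dEC and a ratio of 0.31 (95% interval -0.12 to 0.75), and its sign depended on the setting. The Sparc ratio was 0.62 (0.09 to 1.17) without Gpr124 dEC/dEC replicate plate 1, an interval that leaves out 0, -0.09 (-0.63 to 0.46) without replicate plate 2 and -0.27 (-1.18 to 0.62) with stricter marker classes. Hspg2 had 9 UMIs from Gpr124 fl/fl against 4 from Gpr124 dEC/dEC, a ratio of 1.23 (95% interval -0.61 to 3.38), which ran from 0.41 (-2.36 to 2.97) without Gpr124 fl/fl replicate plate 1 to 1.93 (-0.14 to 4.20) without replicate plate 2, and was 2.26 (-0.64 to 7.73) without cells of shared barcodes. Lama4 had 4 UMIs from Gpr124 fl/fl against 3 from Gpr124 dEC/dEC, a ratio of 0.48 (95% interval -2.09 to 3.25). Nid2 had 4 UMIs from Gpr124 fl/fl against 1 from Gpr124 dEC/dEC, a ratio of 2.06 (95% interval -1.27 to 7.69). With all plates and retained cells, the intervals of Nid1, Sparc, Hspg2, Lama4 and Nid2 included 0. Lamb1 had 2 and 0 UMIs, at or under the floor of 3 in both genotypes, and no ratio is given.

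In the retained pericytes no member's interval left out 0, and single plates and filters moved several ratios. Of the 8 members with at least 30 pericyte UMIs, 0 were at least 2-fold lower in Gpr124 fl/fl, beside 20 of 423 genes (4.73%), and 0 were at least 2-fold higher, beside 12 of 423 genes (2.84%). Col4a1 had 183 UMIs from Gpr124 fl/fl against 315 from Gpr124 dEC/dEC, a log2 ratio of -0.19 (95% interval -0.46 to 0.07). The Col4a1 interval left out 0 without Gpr124 fl/fl replicate plate 2, at -0.47 (-0.83 to -0.12), and with a lower UMI limit of 500, at -0.28 (-0.55 to -0.01), and without replicate plate 1 the ratio was 0.09 (-0.25 to 0.43). Col4a2 had 129 UMIs from Gpr124 fl/fl against 179 from Gpr124 dEC/dEC, a ratio of 0.12 (95% interval -0.22 to 0.45), and -0.05 (-0.49 to 0.38) without cells of shared barcodes. Both collagen intervals, with those of these alternatives, lay inside a 2-fold difference in either direction. Nid1 had a ratio of -0.36 (95% interval -0.83 to 0.09), and with no plate scaling -0.45 (-0.90 to -0.02), an interval that leaves out 0. Sparc had a ratio of -0.03 (95% interval -0.38 to 0.32). Sparcl1 had one of 0.05 (95% interval -0.62 to 0.70), and with no upper UMI limit -0.87 (-1.44 to -0.34), an interval that leaves out 0. The Sparcl1 ratio was 0.57 (-0.23 to 1.31) without Gpr124 fl/fl replicate plate 1 and -0.55 (-1.55 to 0.35) without replicate plate 2. Nid2 had 7 UMIs from Gpr124 fl/fl against 8 from Gpr124 dEC/dEC, a ratio of 0.40 (95% interval -1.30 to 2.06), which ran from -1.58 (-7.05 to 1.32) without Gpr124 fl/fl replicate plate 2 to 1.36 (-0.44 to 3.08) without replicate plate 1. Hspg2, with 0 and 2 UMIs, is given none. The laminin chains had ratios of 0.11 (95% interval -0.80 to 0.98) for Lama4, -0.41 (95% interval -1.29 to 0.42) for Lamb1 and 0.29 (95% interval -0.46 to 1.02) for Lamc1. The Gpr124 fl/fl plates differed among themselves, with Lamc1 at 13.3 (8.54 to 19.8) and 4.26 (1.56 to 9.27) UMIs per 10000, and without replicate plate 1 its ratio was -0.85 (-2.38 to 0.41). With no upper UMI limit the Lamc1 ratio was 0.57 (0.03 to 1.11), an interval that leaves out 0. The Lamb1 ratio ran from -1.02 (-2.42 to 0.16) without Gpr124 fl/fl replicate plate 2 to 0.12 (-0.96 to 1.08) without replicate plate 1. That of Lama4 turned to -0.22 (-1.66 to 1.01) without replicate plate 1, to -0.24 (-0.91 to 0.42) with no upper UMI limit and to -0.31 (-1.40 to 0.70) without the deepest cells. At a mitochondrial limit of 5% the Lama4 ratio moved the other way, to 0.73 (-0.42 to 1.93). Since all Gpr124 dEC/dEC pericytes came from 1 plate, genotype and plate cannot be told apart.

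Genes that work with these members were followed in the class comparison as 5 lists. Of 12 other collagen IV and laminin chains, 7 had a UMI and none passed the filter. The one with the most UMIs was Lamb2, at 0.966 UMIs per 10000 in endothelial cells and 2.98 in pericytes. With no filter on low counts the 7 had a median log2 fold change of 2.20, beside 1.15 over all genes. Of 25 other basement membrane and matricellular genes, 18 had a UMI and 3 were tested. All 3 reached the level of the filter in 3 sums of the class where they were high and in at most 1 sum of the other class, so their direction was set by passing it and no count of calls or test is given for them. Col18a1, the chain that carries endostatin, stood at 15.1 UMIs per 10000 in endothelial cells and 0.124 in pericytes, from 47 UMIs and 1 UMI, a log2 ratio of -6.93 (95% interval -12.26 to -4.38). Egfl7, a secreted endothelial matrix protein that also served as an endothelial marker, had 43 UMIs and 1 UMI and a log2 ratio of -6.80 (95% interval -12.14 to -4.24). Fstl1, a SPARC family relative, had the most UMIs of the list and stood at 6.12 UMIs per 10000 in endothelial cells and 24.1 in pericytes, a log2 ratio of 1.98 (95% interval 1.30 to 2.74). Plate by plate, Col18a1 ran from 9.64 to 28.7 UMIs per 10000 over the 4 endothelial plates and from 0 to 0.709 over the 3 pericyte plates, Egfl7 ran from 6.75 to 16.7 UMIs per 10000 over the 4 endothelial plates and from 0 to 0.207 over the 3 pericyte plates, and Fstl1 ran from 2.23 to 13.5 UMIs per 10000 over the 4 endothelial plates and from 22.5 to 31.2 over the 3 pericyte plates. With no filter on low counts 2 of the 18, Agrn and Fstl1, were called higher in pericytes, beside 188 of 10829 genes (1.74%) over all genes. Called higher in endothelial cells were 6, Col18a1, Col15a1, Vwa1, Egfl7, Mmrn2 and Spock2, beside 50 of 10829 genes (0.462%). The median log2 fold change of the 18 was -1.16. The shares of all genes called with no filter were not matched to the depth of the list genes.

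Of 20 genes of collagen folding, modification, secretion and crosslinking, 18 had a UMI and 1 was tested. This was Serpinh1, the collagen chaperone HSP47, which had the most UMIs of the list, stood at 7.09 UMIs per 10000 in endothelial cells and 11.7 in pericytes, and was not called at 1.04 (SE 0.44, edgeR adjusted p = 0.055). With no filter 1 of the 18, Loxl3, was called higher in pericytes and 0 in endothelial cells, beside 1.74% and 0.462% of all genes, with a median log2 fold change of 1.36 against 1.15 over all genes. Of 15 receptors, 13 had a UMI and 1 was tested. Itga1, the integrin α chain that pairs with Itgb1 to bind collagen IV, had the most UMIs, at 2.25 UMIs per 10000 in endothelial cells and 31.6 in pericytes, a log2 ratio of 3.81 (95% interval 2.74 to 5.14). It reached the level of the filter in the 3 pericyte sums only, so no test is given for it. Plate by plate, Itga1 ran from 1.01 to 3.35 UMIs per 10000 over the 4 endothelial plates and from 28.7 to 37.6 over the 3 pericyte plates. With no filter 4 of the 13 receptors, Itga1, Itga7, Itgav and Itgb5, were called higher in pericytes and 0 in endothelial cells, beside 1.74% and 0.462% of all genes, with a median of 2.32 against 1.15. Of 21 proteases and inhibitors, 19 had a UMI and none passed the filter, and Timp3, a matrix-bound inhibitor of metalloproteinases, had the most UMIs, at 4.19 UMIs per 10000 in endothelial cells and 6.84 in pericytes. With no filter 2 of the 19, Plat and Timp2, were called higher in pericytes and 0 in endothelial cells, beside 1.74% and 0.462% of all genes, with a median of 1.75 against 1.15. As before, the shares of all genes called with no filter were not matched to the depth of these lists. Genes called only with no filter were named after their values were seen.

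Among 609 genes with at least 30 UMIs outside the members, those whose log-scaled level was most correlated with summed Col4a1 and Col4a2 over the 32 cells were Fstl1 (0.71), Bgn (0.71), Mylk (0.69), Loxl2 (0.65) and Sept4 (0.64). Within the 21 pericytes the same values were -0.08, 0.51, 0.23, 0.36 and 0.13, and within the 11 endothelial cells 0.64, 0.66, 0.69, 0.75 and 0.48. The cells share plates and classes, and these values are a description.

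The members were also counted in the wells that were left out. The 1478 wells under 1000 UMIs held 11.7 (10.3 to 13.2) UMIs of Col4a1 per 10000 and 15.2 (13.6 to 16.9) of Col4a2. Both were below their levels in pericytes. The intervals of both genes in these wells lay below those over all endothelial cells, at 30.6 (24.8 to 37.4) and 25.1 (19.9 to 31.4). They overlapped those of the endothelial cells of Gpr124 fl/fl replicate plate 2, at 10.05 (4.59 to 19.1) and 16.7 (9.37 to 27.6). For Col4a2 the interval also overlapped that of Gpr124 fl/fl replicate plate 1, at 17.7 (8.82 to 31.6). Over all Gpr124 fl/fl endothelial cells both chains stood at 17.1 (11.2 to 25.1), which overlapped the level of these wells too. Pooled over plates these wells held 0.770 (0.653 to 0.906) UMIs of Col4a1 per UMI of Col4a2, but the plates differed, with 118 UMIs of Col4a1 and 116 of Col4a2 in Gpr124 dEC/dEC replicate plate 2 and 21 and 41 in replicate plate 1. The Gpr124 fl/fl plates held 66 and 105 in replicate plate 1 and 59 and 81 in replicate plate 2. Sparc stood at 21.2 (19.4 to 23.2), Nid1 at 5.27 (4.37 to 6.31), Lamc1 at 3.19 (2.50 to 4.02), Lama4 at 0.842 (0.507 to 1.32), Lamb1 at 1.20 (0.789 to 1.74) and Hspg2 at 0.399 (0.182 to 0.757) in these wells. Sparcl1 stood at 1.82 (1.30 to 2.47) and Nid2 at 0.754 (0.439 to 1.21). The 11 wells over 8000 UMIs, of which 8 had Pdgfrb and no Cldn5 and 0 the reverse, held Col4a1 at 35.5 (31.8 to 39.5), Nid1 at 19.7 (17.0 to 22.8), Lamb1 at 7.28 (5.67 to 9.22) and Hspg2 at 0.739 (0.297 to 1.52). The 3 wells with both markers held Col4a1 at 64.6 (52.3 to 79.0) and Hspg2 at 0. The 7 wells with neither marker held Col4a1 at 25.3 (16.4 to 37.3), with 22 of the 25 UMIs in 1 well, and the 5 wells with a high mitochondrial share at 19.1 (9.85 to 33.3). Col4a2 stood at 9.10 (4.16 to 17.3) in the wells with neither marker and 46.0 (30.8 to 66.1) in those with a high mitochondrial share.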

How the data were processed

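SORT-seq reads had been aligned to GRCm38 with STARsolo 2.7.11b, as the submitters' processing notes state, and the authors deposited estimated counts (UMIs) for every well, which need not be whole and were not scaled between plates. They were used as deposited in filters and rounded to whole numbers otherwise. The 92 spike-in RNAs were left out, and so were wells with both markers. Doublets were not called in any other way.

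Sums per class and plate were tested with edgeR 4.0.16 in R 4.3.3 (TMM, filterByExpr, quasi-likelihood, Benjamini-Hochberg over all genes tested, threshold 0.05), tried first on simulated data. Intervals at 95% were exact Poisson for levels, Clopper-Pearson for shares and conditional binomial for ratios (scipy 1.17.1). The floor was 3 counts over a group. Alternatives were other mitochondrial and UMI limits, no plate scaling, stricter marker classes (a further marker of the class required and markers of the other class barred), library size only, DESeq2 1.42.0, no filter on low counts, genotype as a covariate, the plate or suspension as a block, each plate left out, means over cells, and another denominator. The classes of a plate come from the same pooled suspension. Deviations of the classes from their means correlated at 0.0191 to 0.0648 over 148 genes in each of 3 plates.

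Members and lists were chosen with earlier results of these data known. Named were all members, list genes called in the class test or with the most UMIs of their list, and the 5 genes most correlated with collagen IV. List genes called only with no filter were named after their values were seen. The promoter motifs were chosen after values were seen.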

Additional observations from a re-analysis of the deposited data

Results flagged for a closer look

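The Col4a2 plates of the genotypes lay in opposite order in the classes. Both Gpr124 fl/fl endothelial plates (17.7 and 16.7 UMIs per 10000) lay below both Gpr124 dEC/dEC plates, while both Gpr124 fl/fl pericyte plates (39.4 and 41.1) lay above the Gpr124 dEC/dEC pericyte plate (37.0). The endothelial log2 ratio less the pericyte ratio was -1.05. The difference was not tested, the pericyte interval included 0, and the pericyte side rests on 1 Gpr124 dEC/dEC plate. The pericyte direction was not stable: its log2 ratio was 0.12, 0.0027 at a mitochondrial limit of 5% and -0.05 without cells of shared barcodes. Hspg2 had the same opposition of plates with the signs exchanged, from 0 and 2 pericyte UMIs, and was left aside because both genotypes were at or under the floor.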

How the results depend on the processing

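The class comparison called 3 members and 51 genes. With the plate as a replicate block it called 3 members and 46 genes, and the block changed no member's call. Stricter classes called 1 member and 25 genes, with fewer cells, and sums per suspension called 1 member. With no filter on low counts 238 of 10829 genes were called, and 23 without cells of shared barcodes, an alternative chosen after seeing the data, as it was for the genotype ratios. Leaving out each plate in turn gave 2 to 3 members and 32 to 54 genes. The Sparcl1 class value ran from -0.070, without Gpr124 fl/fl replicate plate 2, to 0.95 when plates were left out, and that of Sparc turned to 0.056 with no filter.

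The endothelial genotype ratio of the 10 genes together was -0.42, -0.86 with stricter classes (1 Gpr124 fl/fl cell and 3 Gpr124 dEC/dEC cells) and -0.67 to -0.12 when a plate was left out. The cause of these changes, and of the turns of Sparcl1 and Sparc, was not tested. The pericyte ratio was -0.08, -0.16 (-0.27 to -0.05) with no upper UMI limit and -0.18 to 0.04 when a plate was left out, and it could not be computed without Gpr124 dEC/dEC replicate plate 2. Of the other values for single genes, 276 kept their direction and side of the threshold or stayed within their counting interval, 7 lost a call, 1 gained a call and 9 moved further. Depth limits Nid2, Hspg2 and the endothelial laminin chains most.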
